A study of Rattus norvegicus with 19 samples.

Results

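Transcripts of 10 genes that build and run the mitotic spindle were compared between 13 rat mammary carcinomas and 6 normal glands: the motor genes Kif11, Kif18a, Kif22, Kif2c, Kif20a and Kif23, and Racgap1, Prc1, Tpx2 and Aspm, whose proteins bundle, nucleate or anchor spindle microtubules. The genes were chosen by name, with earlier results of these data known. A probe was taken as theirs when the RefSeq accession in the array annotation mapped to the gene. This gave 12 probes of 30367 on the array, for 10 of 15168 named genes. All rats were female and first-generation crosses (F1) of Sprague-Dawley with Copenhagen rats, with 1 single-colour array per sample. The labels call the carcinomas radiation-induced and state that animals were either untreated or given 4 Gy of 137Cs gamma rays over the whole body, at 0.5 Gy per minute and an age of 7 weeks. Whether a given normal gland was irradiated is left unstated, as is the age at collection, so the comparison sets tumour against gland and does not isolate irradiation. The labels number each sample within its group, and nothing says how many samples 1 rat gave.

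At the onset of mitosis a cell rebuilds its microtubules into a spindle. Motors push the poles apart, pull chromosomes to the equator, trim microtubule ends and, after the chromosomes have parted, bundle the microtubules left between them into the midzone where the cell divides. Most of these proteins are made anew for each division and destroyed after it. Their transcripts are low in resting tissue and are widely used to mark dividing cells. Transcription of many such genes is known to depend on a short promoter element, the cell cycle genes homology region, which binds the DREAM and MuvB complexes, often with CCAAT boxes upstream that bind NF-Y.

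RefSeq promoter windows of assembly GRCr8, which reach from 250 bases before to 50 after an annotated transcription start, were at hand for 8 of the 10 genes; Racgap1 and Tpx2 had none. The homology region (TTTGAA or TTCGAA on either strand) stood in the windows of 4 of these 8 genes, Aspm, Kif22, Kif23 and Prc1, and in 19.7% of all 33469 windows. The CCAAT box (CCAAT on either strand) stood in 6 of 8 genes and in 37.5% of all windows. The same 4 genes held both elements, as did 7.95% of all windows. An E2F-type site (TTTCCCGC, TTTCGCGC, TTTGCCGC or TTTGGCGC on either strand) stood in 1 of the 8, Kif18a, and in 2.14% of all windows, and TATAAA in none of the 8 and in 14.2% of all windows. These searches describe letters in a window and show no binding. The 200 bases before the start are shown for the 4 genes that held the homology region and for Kif18a, the gene of the group whose change did not pass the test, each in its direction of transcription with matches in capitals.
Aspm: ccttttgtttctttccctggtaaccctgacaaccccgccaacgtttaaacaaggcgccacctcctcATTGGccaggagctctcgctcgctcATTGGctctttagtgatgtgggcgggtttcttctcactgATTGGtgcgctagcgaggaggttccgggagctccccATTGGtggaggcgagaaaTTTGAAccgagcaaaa
Kif23: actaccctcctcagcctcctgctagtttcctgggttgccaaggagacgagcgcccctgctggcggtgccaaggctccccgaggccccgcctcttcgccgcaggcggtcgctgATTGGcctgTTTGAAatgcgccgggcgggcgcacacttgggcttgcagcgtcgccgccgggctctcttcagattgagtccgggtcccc
Prc1: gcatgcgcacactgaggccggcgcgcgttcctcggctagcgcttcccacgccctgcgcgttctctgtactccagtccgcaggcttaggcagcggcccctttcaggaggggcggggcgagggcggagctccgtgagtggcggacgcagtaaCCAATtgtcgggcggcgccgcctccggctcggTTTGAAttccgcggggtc
Kif22: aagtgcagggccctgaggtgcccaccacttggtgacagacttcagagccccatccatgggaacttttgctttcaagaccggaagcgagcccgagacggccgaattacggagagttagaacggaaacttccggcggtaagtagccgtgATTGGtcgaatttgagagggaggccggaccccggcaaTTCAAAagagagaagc
Kif18a: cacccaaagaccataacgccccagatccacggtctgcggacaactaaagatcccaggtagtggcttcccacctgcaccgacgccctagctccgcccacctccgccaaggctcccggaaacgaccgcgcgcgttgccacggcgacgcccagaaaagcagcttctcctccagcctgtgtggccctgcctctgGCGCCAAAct
The stretches lie at chr13:53625384-53625583, plus strand (Aspm), chr8:71320585-71320784, minus strand (Kif23), chr1:143659281-143659480, plus strand (Prc1), chr1:191080879-191081078, minus strand (Kif22) and chr3:116218807-116219006, plus strand (Kif18a). In Aspm the capitals mark 4 CCAAT boxes that begin 134, 109, 70 and 34 bases before the start and a TTTGAA that begins 16 bases before it. Prc1 had its TTTGAA at 18 bases and Kif22 at 16 bases, the latter on the opposite strand and so printed as TTCAAA. Kif23 had a CCAAT box at 88 bases. Its TTTGAA, at 79 bases, was farther from the annotated start than that of the other 3 genes. In Kif18a the only match was an E2F-type site at 10 bases, printed as its reverse complement. Kif11 had 1 CCAAT box, at 61 bases, and Kif20a had 3, with none of the other elements in either window. The window of Kif2c, a gene whose change passed the test, held none of these elements.

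Carcinomas had higher values than normal glands for 9 of the 10 genes, and the change of Kif18a did not pass the test. The median change of the 10 was 1.66 on the log2 scale, or 3.16-fold, against 0.01 for all 12803 genes tested. Changes were tested with limma, with Benjamini-Hochberg adjustment over all genes and a threshold of 0.05, and every adjusted p given for a change is from that test. Over all genes, 9.7% were higher in carcinomas and 13.2% lower. A change above 1 on the log2 scale (2-fold) was seen in 9 of the 10 genes and in 5.90% of all genes. Values below are normalised log2 intensities, in which 0 is the array's 75th percentile. They compare samples for 1 probe and not 1 gene with another. Groups are given by their lowest value, median and highest value, and changes as carcinoma minus normal gland ± SE (n = 13 and 6).

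**Figure D1:**
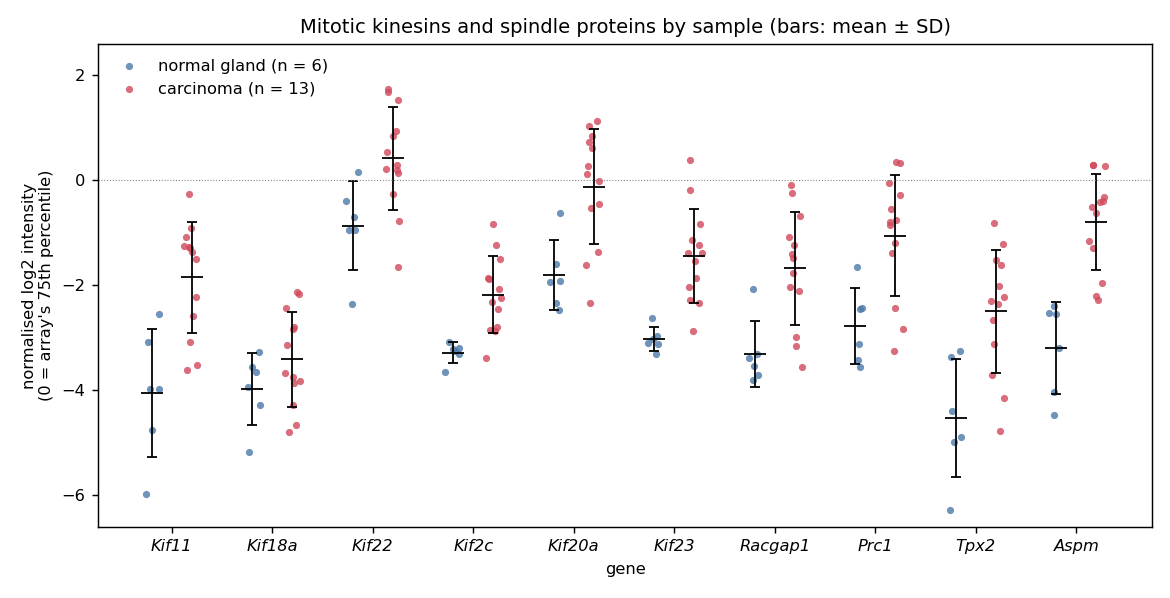
Normalised log2 intensity (0 is the array's 75th percentile) of each gene in 6 normal glands (blue) and 13 carcinomas (red); each point is a sample and black bars give the mean ± SD. The groups are apart without overlap for Aspm, share part of their range for the other 9 genes, and lie closest for Kif18a; heights of different genes cannot be compared.

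Kif11 encodes the motor that slides antiparallel microtubules apart and so separates the spindle poles. Its values were -5.97, -3.97 and -2.55 in glands and -3.62, -1.37 and -0.26 in carcinomas. Gland 3 was the lowest and gland 4 the highest, and 9 of 13 carcinomas lay above every gland; carcinomas 1, 3, 12 and 13 lay within the gland range. The change was 2.21 ± 0.51 (adjusted p = 0.00452). The probe was well above background on 5 of 6 gland arrays and on all 13 carcinoma arrays. With normexp background correction the change was 0.84 ± 0.35 and did not pass (adjusted p = 0.0515).

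Kif18a and Kif22 act on chromosomes and on the ends of the microtubules that hold them. Kif18a, a motor that dampens the swings of chromosomes at the spindle equator, read -5.17, -3.79 and -3.26 in glands and -4.80, -3.67 and -2.13 in carcinomas. The groups overlapped widely, with 6 of 13 carcinomas above every gland and 7 within the gland range. Its change of 0.57 ± 0.40 did not pass (adjusted p = 0.328), and it was well above background on 5 of 6 gland arrays. The sign turned with normexp background correction, at -0.28 ± 0.25. Kif22 encodes the chromokinesin that pushes chromosome arms away from the poles. It read -2.36, -0.82 and 0.16 in glands, where gland 1 was the lowest and gland 4 the highest, and -1.65, 0.29 and 1.74 in carcinomas. Of the 13 carcinomas, 9 lay above every gland, and carcinoma 6 missed the highest gland narrowly. The change was 1.28 ± 0.43 (adjusted p = 0.0366), the closest to the threshold among the 9, and it passed on 11 of the 19 occasions when 1 array was left out. It did not pass without gland 1, 2, 3, 5 or 6 or carcinoma 9, 10 or 11, with adjusted p up to 0.107.

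Kif2c encodes a kinesin that does not walk but takes tubulin off microtubule ends, which corrects faulty attachments at the centromere. Glands lay close together at -3.64, -3.23 and -3.07, and carcinomas spread over -3.38, -2.24 and -0.82. All carcinomas but carcinoma 13 were above every gland. The change was 1.10 ± 0.30 (adjusted p = 0.0126). A second probe of Kif2c, with 10 spots where the one used had 1, gave 1.46 ± 0.34 (adjusted p = 0.00461 over probes). There too 12 of 13 carcinomas exceeded the glands, but that probe was well above background on 5 of 6 gland arrays. With normexp background correction the change was 0.38 ± 0.24 (adjusted p = 0.191).

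The remaining motors and their partners work at the midzone. Kif20a carries the chromosomal passenger complex to the midzone, where the cleavage furrow forms. It read -2.48, -1.92 and -0.61 in glands and -2.34, 0.12 and 1.13 in carcinomas, with carcinomas 1, 12 and 13 among the glands and 10 above them. Its change was 1.69 ± 0.45 (adjusted p = 0.0114). Kif23 and Racgap1 encode the motor and the GTPase-activating subunit of centralspindlin, the complex that bundles midzone microtubules and brings the furrow's activator to them. Kif23 read -3.31, -3.06 and -2.62 in glands and -2.87, -1.39 and 0.38 in carcinomas, and carcinoma 1 alone fell within the gland range. The change of Kif23 was 1.58 ± 0.36 (adjusted p = 0.00392).

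Racgap1 read -3.80, -3.47 and -2.08 in glands and -3.55, -1.48 and -0.09 in carcinomas. The top of the gland range was gland 4, with the next gland at -3.31, and 9 carcinomas were above it. The change of Racgap1 was 1.63 ± 0.45 (adjusted p = 0.0132), and 0.84 ± 0.36 with normexp background correction, which did not pass (adjusted p = 0.0585). Prc1 encodes the protein that crosslinks antiparallel microtubules of the midzone. It read -3.56, -2.78 and -1.65 in glands and -3.25, -0.79 and 0.36 in carcinomas, and carcinomas 1, 12 and 13 were again the 3 within the gland range. Its change was 1.72 ± 0.48 (adjusted p = 0.0147), and a second probe of Prc1, well above background on 5 of 6 gland arrays, gave 1.37 ± 0.45 (adjusted p = 0.0321 over probes).

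Tpx2 and Aspm encode proteins that are not motors. Tpx2 activates the kinase Aurora A and starts microtubule growth around chromosomes. It read -6.27, -4.64 and -3.26 in glands and -4.78, -2.30 and -0.81 in carcinomas, and 10 carcinomas exceeded every gland. The change was 2.03 ± 0.53 (adjusted p = 0.0103). Only 3 of the 6 gland arrays measured Tpx2 well above background, with 1 spot per array, so the lower end of the gland range is near background. With normexp background correction the change of Tpx2 was 0.53 ± 0.34 (adjusted p = 0.20).

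Aspm encodes the protein that focuses microtubule minus ends at spindle poles and whose loss causes a small brain in humans. It was the 1 gene of the 10 for which all carcinomas (-2.27, -0.50 and 0.30) lay above all glands (-4.48, -2.86 and -2.39), a pattern seen in 0.539% of all genes tested. The gap was small: carcinoma 13 at -2.27 and gland 4 at -2.39 were neighbours. The change was 2.40 ± 0.42 (adjusted p = 0.000537), and it was 1.38 with normexp background correction, which also passed. The probe was well above background on 5 of 6 gland arrays.

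With normexp background correction 5 of the 10 passed as higher, Aspm, Kif20a, Kif23, Prc1 and Kif22, where 7.26% of all genes did. It moved the median change of all genes to -0.37. Measured from that median, the 10 genes changed by 0.09 to 1.76, all above it, with a median of 1.23.

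Both groups were present on each of the 3 slides, so the genes were also compared within slides. On slide 1 (4 carcinomas, 3 glands) the 10 changes ran from 0.22 to 2.79, and on slide 2 (4 and 2) from 1.05 to 2.21. On slide 3 (5 and 1) they ran from -0.09, for Kif18a, to 1.96. Aspm passed on slide 1 (2.79 ± 0.51, adjusted p = 0.0263) and on slide 2 (2.21 ± 0.31, adjusted p = 0.0239). No other gene of the 10 passed on a single slide. Over all genes 1.2% and 0.351% were higher at this adjusted threshold on slides 1 and 2. An unadjusted limma p under 0.05 was seen for 8 of the 10 on slide 1 and 8 on slide 2. So it was for 3541 and 3113 of all 12803 genes on these slides, higher or lower. Slide 3 held 1 gland, so its changes, with a median of 1.49, are given here without such counts.

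**Figure D2:**
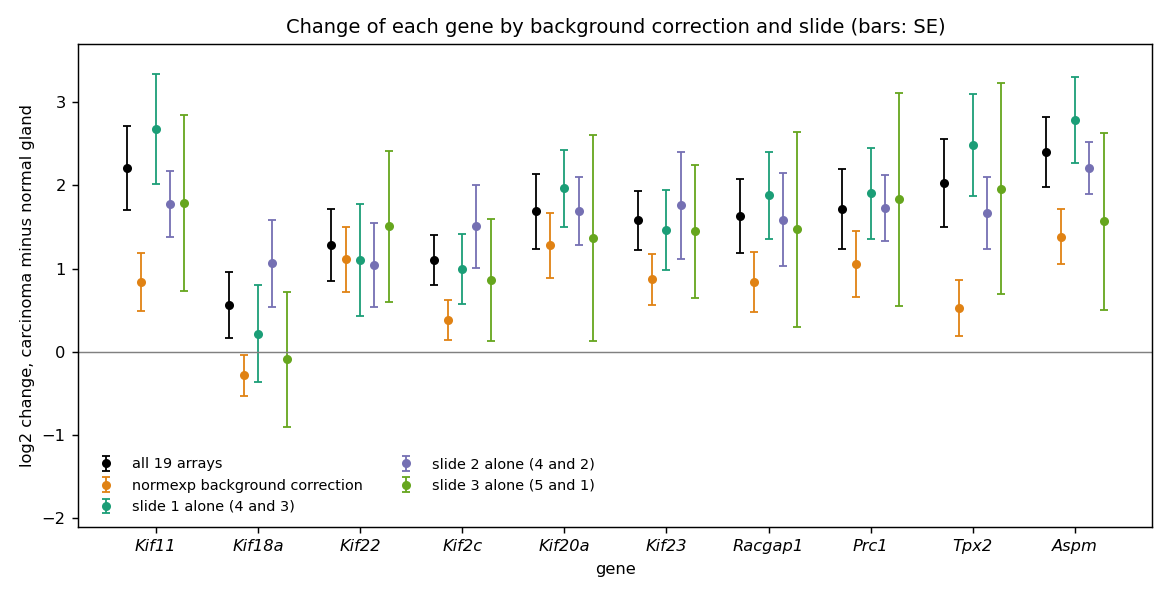
Log2 change of each gene, carcinoma minus normal gland, with SE bars, from all 19 arrays (black), with normexp background correction (orange) and within each slide (green, purple and light green, with carcinomas and glands counted in the key). Normexp changes are smaller than the black ones for all 10 genes, and Kif18a is the gene whose points reach below 0.

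Carcinoma arrays were also brighter, with a 75th percentile of 485 to 1428 intensity units against 295.5 to 673 in glands. With log2 array brightness as a covariate the median of the 10 changes was 2.51 and none passed, with adjusted p from 0.0641 for Aspm to 0.507 for Kif18a. In that fit 0.0859% of all genes were higher at the adjusted threshold. An unadjusted limma p under 0.05 was seen for 9 of the 10, and for 1844 of all 12803 genes, higher or lower. Carcinoma 7 was the 1 carcinoma within the gland range of brightness. Among the 13 carcinomas all 10 genes had a negative correlation with brightness, with Pearson r from -0.51 (Tpx2) to -0.15 (Kif23), and none passed (Benjamini-Hochberg adjusted permutation p of at least 0.347 over 10 tests). Spearman's coefficient ran from -0.63 to -0.27 (adjusted permutation p at least 0.178), and its lowest value, for Tpx2, had an unadjusted permutation p of 0.0256. Without the 2 carcinomas farthest from the median brightness, r ran from -0.45 to -0.09 (adjusted permutation p at least 0.576).

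The order of the carcinomas was similar across the genes. Carcinoma 9 had the highest value for 8 of the 10, carcinoma 10 for Prc1 and carcinoma 11 for Aspm. Carcinoma 13 had the lowest value for 7 and was among the lowest 3 for all 10. Carcinomas 1 and 12 were among the lowest 3 for 9 and 8 genes. Averaged over the 10 genes, each centred on its carcinoma mean, carcinoma 9 lay at 1.43 and carcinoma 10 at 1.10, and carcinomas 12, 1 and 13 at -1.08, -1.36 and -1.60. Carcinomas 2, 4, 7, 9, 10 and 11 were above every gland for all 10 genes, whereas carcinomas 1 and 13 were so for 2. Shares over all genes are not given for single carcinomas above the glands. Such counts, here and for each gene above, are therefore not read as particular to the 10 genes.

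**Figure D3:**
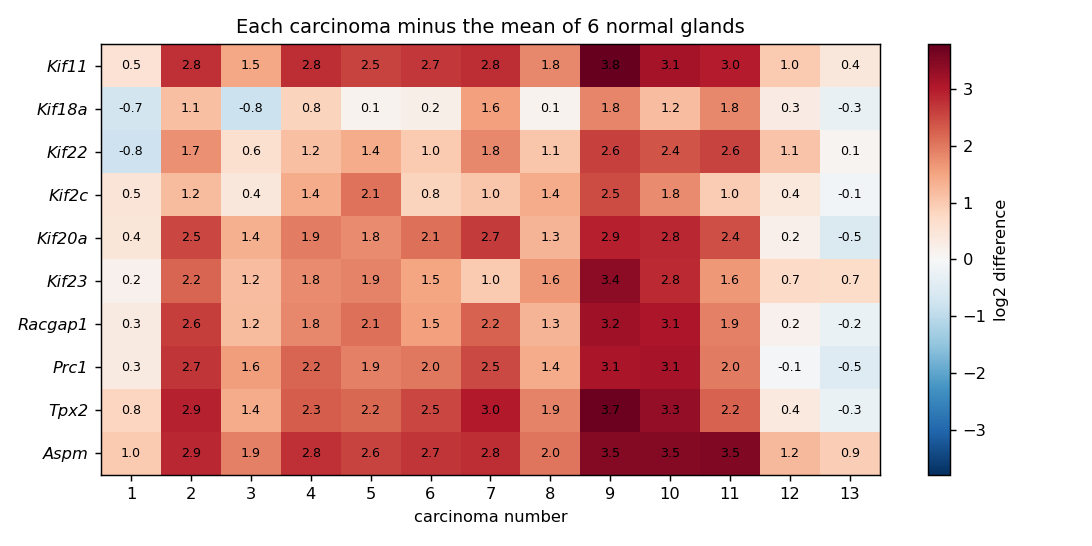
Log2 difference of each of 13 carcinomas (columns, by number) from the mean of the 6 normal glands, for each gene (rows); red is above and blue below the gland mean, and the figures in the cells are rounded differences. Columns 9 and 10 are dark red in nearly every row, and columns 1, 12 and 13 are pale or blue.

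The arrays of the low carcinomas 1, 12 and 13 had 75th percentiles of 1131, 1128 and 1293 units, at or above the carcinoma median of 1128. Carcinomas 12 and 13 carry a letter code in their descriptions, as do carcinoma 11 and gland 6, and the other samples carry a number. The letter-coded carcinoma 11 was above every gland for all 10 genes. Among carcinomas the letter-coded median (n = 3) was below the number-coded median (n = 10) for all 10 genes. These medians were -3.08 against -1.33 for Kif11, -4.16 against -2.12 for Tpx2 and 0.21 against 0.41 for Kif22. Carcinomas 11, 12 and 13 were all on slide 3, as were the number-coded carcinomas 8 and 10. The part of code or slide in these values was not tested. In the number-coded samples alone, 8 genes passed (12.7% of all genes were higher), with a median change of 1.92, and Kif22 did not (adjusted p = 0.0567).

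Normal glands varied as well. Gland 4 had the highest value for 9 of the genes, and gland 3 the lowest for 7. Averaged over the 10 genes, each centred on its gland mean, gland 4 lay at 0.92 and gland 3 at -0.79. Gland 3 had the dimmest array, at 295.5 units, and its part in these values was not tested. The SD over carcinomas exceeded that over glands for 9 of 10 genes, all but Kif11, most of all for Kif23 (0.89 against 0.23) and Kif2c (0.73 against 0.19). No share over all genes is given for this, so it is not read as particular to the 10 genes.

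All 45 pairs of the genes were positively correlated over the 13 carcinomas after Benjamini-Hochberg adjustment over the pairs, with Pearson r from 0.58 to 0.98 and a median of 0.83 (largest adjusted permutation p = 0.0368). The highest was Prc1 with Tpx2, at r = 0.98 and a Spearman coefficient of 0.98 (permutation p = 1e-05 for each, the smallest that 100000 permutations can give; adjusted 3.75e-05 and 9e-05). Without the 2 carcinomas farthest from the median of Prc1, r was 0.96. The lowest was Kif2c with Kif18a, at r = 0.58 (adjusted permutation p = 0.0368), a Spearman coefficient of 0.51 (adjusted 0.0776) and r = 0.38 without the 2 farthest carcinomas (adjusted 0.249).

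Of the 45 pairs, 44 passed with Spearman's coefficient and 40 without the 2 farthest carcinomas. The 5 pairs lost were Kif2c with Kif20a, Kif22, Kif18a and Aspm, and Kif23 with Kif18a. Without those carcinomas r was 0.55, 0.52, 0.38 and 0.61 for the 4 pairs of Kif2c, in that order, and 0.41 for Kif23 with Kif18a (adjusted permutation p = 0.0524 to 0.249). In the 10 number-coded carcinomas 44 pairs passed, Kif20a with Kif2c not (adjusted permutation p = 0.0678), and with normexp values 45. Each slide held 4 or 5 carcinomas, too few for a value within slides.

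**Figure D4:**
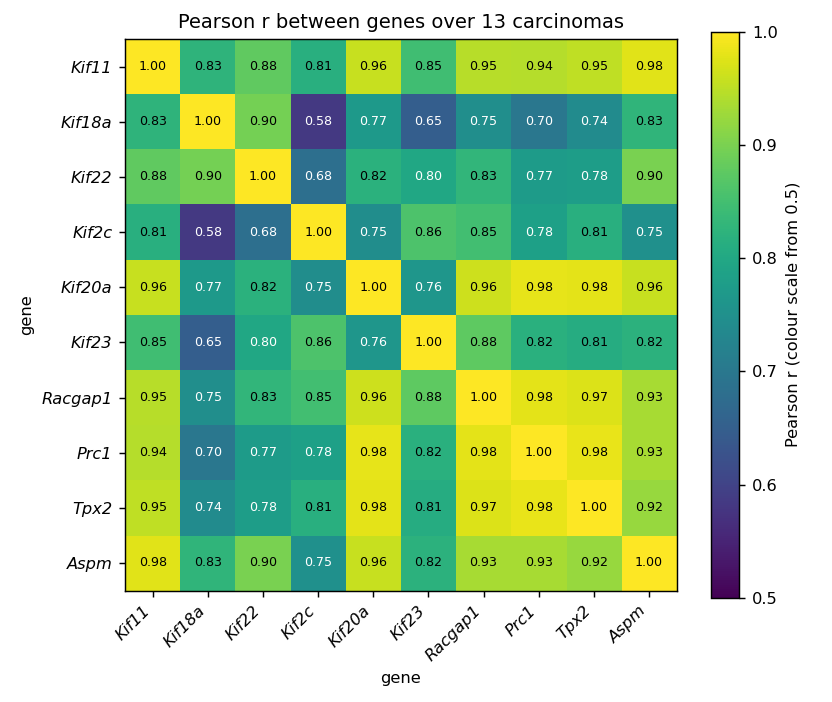
Pearson r over 13 carcinomas for each pair of the 10 genes; the colour scale starts at 0.5. Kif11, Kif20a, Racgap1, Prc1, Tpx2 and Aspm form a block at 0.92 or above, and rows for Kif18a and Kif2c are lower, down to 0.58.

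As a description over the same 13 carcinomas, Kif11 (0.98), Racgap1 (0.98) and Aspm (0.97) followed the mean of the other 9 genes most closely, and Kif18a (0.80) and Kif2c (0.81) least. The 10 genes outside the group whose values lay nearest to its mean, of 12733 compared, included Ccna2 (r = 0.99), Asf1b, Cdca3, Spc25, Cep55, Kntc1, Mis18a, Ttk and Cdc20 (r = 0.97). They include the mitotic cyclin Ccna2, the histone chaperone Asf1b and the checkpoint kinase Ttk. All these values share arrays, and the median r of the other genes with the group's mean was 0.07. Of these 10 genes 4 passed as higher in carcinomas, and Ccna2 changed by 1.21 ± 0.54 and did not pass (adjusted p = 0.112).

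Other kinesins and spindle genes were read from lists, whose counts stand against 9.7% of all genes higher and 13.2% lower. Of 9 further mitotic kinesins 4 could be tested, and 3 were higher: Kif20b, a relative of Kif20a, at 2.21 ± 0.45, Kif18b, a relative of Kif18a, at 1.81 ± 0.39, and Kif15, which shares pole separation with Kif11, at 1.35 ± 0.35. Kifc1, a minus-end motor, changed by 0.89 ± 0.37 and did not pass (adjusted p = 0.0919). Kif20b was well above background on 3 of 6 gland arrays, so its change rests in part on gland values near background. With normexp background correction Kif20b (0.41) and Kif15 (0.52) did not pass, and Kif18b (1.17) did. The median of these 4 was 1.58, near that of the group of 10. Kinesins of transport and cilia differed in that 7 of 17 were higher and 1 lower, Kif7 (-1.20 ± 0.23), with a list median of 0.43. Among them Kif3a, a subunit of the ciliary motor, changed by 1.30 ± 0.38, Kif26b by 0.91 ± 0.32 and Kif1b, a carrier of vesicles and mitochondria, by 0.86 ± 0.27, but Kif26b was well above background on 2 of 6 gland arrays and was -0.64 with normexp background correction, where it passed as lower. Kif3a (0.76) and Kif1b (0.20) did not pass there. That count of 7 was 3 without gland 2, 2 without gland 3 and 4 without gland 4 or carcinoma 5. Over the carcinomas the median r of the 17 with the group's mean was 0.002, against 0.89 for the 4 mitotic kinesins.

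Of 21 further spindle assembly genes 8 were higher and none lower (median 0.63), among them Ckap2 (2.33 ± 0.46), a microtubule-binding protein gene, and Spag5 (1.55 ± 0.44), a gene of spindle and kinetochore assembly. Gtse1, a microtubule-binding protein gene of the cell cycle, exceeded background clearly on the 13 carcinoma arrays and on 0 gland arrays, so its difference is given as a bound of at least 1.91-fold, with the gland level set no lower than the dimmest probe with every spot well above background. Gtse1 entered the test only through carcinomas and stands in the count of 8 by its measured gland values (mean -6.43, adjusted p = 9.45e-05), a p that does not test the bound. Its change was -0.13 with normexp background correction. Aurka, the kinase that Tpx2 activates, changed by 0.72 ± 0.33 and did not pass (adjusted p = 0.126). Without gland 3, 5 of these 21 were higher.

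Of 24 kinetochore and checkpoint genes 13 were higher and none lower (median 1.25), among them Kntc1 (2.25 ± 0.51), Cenpf (2.04 ± 0.40) and Ska1 (1.83 ± 0.51), which hold microtubules or checkpoint proteins at centromeres. These 3 were well above background on 3, 4 and 4 of 6 gland arrays, so their changes rest in part on gland values near background, and with normexp background correction they were 0.61, 0.35 and 0.32 and did not pass. Without gland 3, 8 were higher. Of 9 passenger complex and cytokinesis genes 3 were higher, Plk1 (1.79 ± 0.45), a kinase of mitotic entry and exit, Cep55 (1.58 ± 0.47), an abscission scaffold, and Arhgap11a (1.35 ± 0.47), and Rhoa, the GTPase of the furrow, was lower (-0.50 ± 0.15). Without gland 1 or gland 3, 1 of the 9 was higher, without carcinoma 12 or 13 it was 5, and without gland 3 none was lower. With normexp background correction Cep55 (0.78) and Arhgap11a (0.28) did not pass. The passenger subunits Birc5 (1.21 ± 0.44, adjusted p = 0.0524) and Aurkb (1.24 ± 0.50, adjusted p = 0.0785), which Kif20a carries, did not pass.

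Of 23 genes of DNA replication, which precedes mitosis, 1 was higher, the thymidine kinase gene Tk1 (1.38 ± 0.46), against 9.7% of all genes, and the list median was 0.48. Their median r with the group's mean over carcinomas was 0.86. Tk1's call was lost without any 1 of glands 1, 2, 3, 5 and 6 or carcinoma 5, when none of the 23 passed, and 3 passed without carcinoma 13. Of 14 transcription regulators of the cell cycle 3 were higher and 1 lower. Foxm1 (1.17 ± 0.25) and Mybl2 (1.33 ± 0.44), activators of mitotic genes, were among the higher, as was the E2F partner gene Tfdp1 (0.60 ± 0.21). Mybl2 did not pass with normexp background correction (0.41). That count was 1 without any 1 of glands 2, 3, 5 and 6 or carcinoma 9. Of 12 tubulin genes, which encode the polymer these motors walk on, none was higher and 2 were lower, a share near the 13.2% of all genes that were lower. These were Tubb2b (-1.60 ± 0.33) and Tuba1a (-0.87 ± 0.30), and the list median was -0.24. Only 1 was lower without any 1 of glands 1, 2 and 3 or carcinomas 3, 6, 9, 11, 12 and 13. With quantile normalization 1 tubulin gene was higher and 1 lower.

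**Figure D5:**
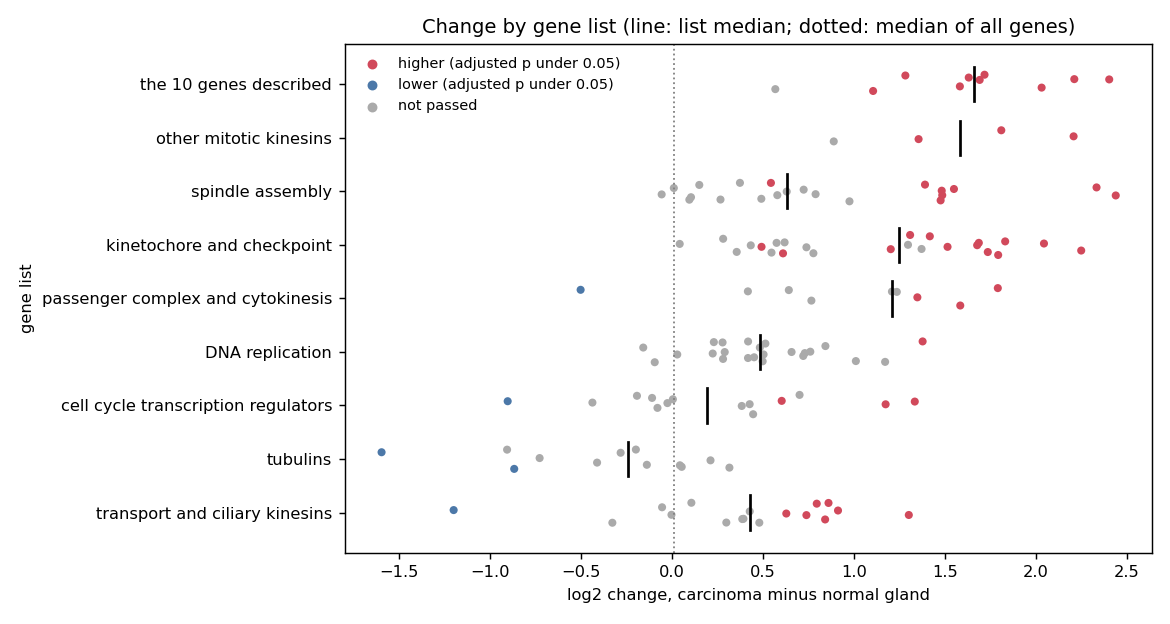
Log2 change of each tested gene, carcinoma minus normal gland, by list; red and blue points passed the limma test as higher or lower, grey ones did not, black lines give list medians and the dotted line the median of all genes. The 10 genes and the other mitotic kinesins have medians of 1.66 and 1.58, and tubulins are the list whose median is below 0.

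Tissue makeup differed between the groups beside these changes, and in whole tissue fewer cells of a type and less RNA per cell cannot be told apart. Summed marker levels are in multiples of the array's 75th percentile, and no marker of the 8 cell type lists was dim on every array of a group. All 8 adipocyte markers were lower, with sums of 256 to 659 in glands and 1.15 to 10.6 in carcinomas. Endothelial markers were lower for 6 of 7 (6.47 to 21.4 against 1.70 to 4.95), those of B and plasma cells for 5 of 5 (0.544 to 12.4 against 0.0846 to 1.64) and those of T and NK cells for 6 of 8 (1.08 to 10.3 against 0.425 to 3.16). Macrophage markers were lower for 4 of 8 (95.8 to 245 against 20.9 to 145) and fibroblast markers for 2 of 7 (52.2 to 185 against 7.34 to 257). Basal epithelial markers passed for 0 of 7 by limma (13.4 to 25.6 against 0.820 to 56.4). The part of these lists in the result was not tested. Luminal epithelial markers were higher for 4 of 14 (117 to 252 against 89.4 to 356), and with their mean as a covariate the median of the 10 changes was 1.68 and 8 of them passed, against 7.19% of all genes, Kif22 not (adjusted p = 0.0648).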

How the data were processed

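RNA from 6 normal glands and 13 carcinomas was hybridised to 19 Agilent single-colour (Cy3) arrays. The submitters' processing notes name Agilent Feature Extraction 10.7.3.1. Scanner files hold, per the file headers, spot intensity values from which background was already subtracted. The deposited value table is on the log2 scale, and its scaling step is not given in the sources used here; its columns followed the scanner log2 values up to a constant shift. Outlier spots were treated as missing, each array's 75th percentile was subtracted from its log2 intensities, and a probe's spots were averaged. Accessions were matched to symbols through a RefSeq table of GRCr8, for names only, since the array annotation rests on another assembly (18005 probes named, 12362 not). A probe was kept when at least 0.5 of its spots were well above background on at least 6 arrays, and the brightest was used per gene; all 10 genes were kept. That filter needs only 6 arrays, so a gene may pass through carcinomas alone. 

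Differences were fitted with limma 3.58.1 in R 4.3.3, group as the only term, variance following intensity, 2-sided. Normexp used median spot and median local background signals with an offset of 50. The code was tested on simulated data. Correlations used 100000 permutations, 2-sided. P-values for changes weigh the group difference against the spread between these samples. They treat the samples as independent, which the labels do not state, and the number of arrays limits precision. The genes named from lists were up to 3 per list with the largest changes in the direction most passing genes took, and the 10 nearest in correlation, of which 1 is not reported here. Kifc1, Kif7, Aurka, Birc5, Aurkb and Rhoa were named after their values were seen. The 10 genes and all lists were chosen with earlier results of these data known. Samples were not paired by replicate number, as the labels state no pairing. Deviations of same-numbered samples correlated at -0.12 to 0.24, which cannot show whether any came from the same rat. Alternatives tried are given in the closing section.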

Additional observations from a re-analysis of the deposited data

Results flagged for a closer look

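Racgap1 in normal gland 4 read -2.08 on the normalised log2 scale, far above the other 5 glands, of which the next was at -3.31. The gap was 0.717 of the range of the 6 glands, above the critical value of Dixon's test for a single sample far from the others. Gland values of the 10 genes were examined this way and 1 stood apart; chance gives about 1 such flag in 20 groups. Without gland 4, 9 of the 10 genes passed as higher, with a median change of 1.90. Over all genes 1043 passed as higher in that fit, against 1242 with all samples.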

How the results depend on the processing

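For the 10 genes, 9 were higher with quantile normalization, the deposited table, no filter, a stricter filter, outlier spots kept, second probes, slide, scan day, code series or replicate number as a block, and limma without the trend, and 8 with array weights, number-coded samples alone or the luminal covariate (Kif22 not passing). It was 5 with normexp, 1 on slides 1 and 2 alone, 0 on slide 3 alone and 0 with the brightness covariate. Some of these settings could differ little: both filter settings left the 10 changes as they were, and second probes altered only Kif2c and Prc1. The deposited table followed the scanner values up to a constant shift per array. Leaving out 1 array gave 8 or 9 genes higher. Kif22 was lost without glands 1, 2, 3, 5 or 6 or carcinomas 9, 10 or 11. The cause was not tested, except that slides hold fewer samples.

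Over all genes, counts higher and lower were 930 and 5276 with normexp, 153 and 533, 45 and 267, and 0 and 31 on slides 1, 2 and 3 alone, 11 and 172 with brightness (1844 at unadjusted p under 0.05), and 1866 higher with array weights. On slide 3, 1156 genes had an unadjusted p under 0.05. Leaving out 1 array gave 664 to 1440 higher and 1087 to 1830 lower, with 694 and 1119 without gland 2 and 664 and 1087 without gland 3.

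With normexp, lists had these genes higher and lower: other mitotic kinesins 1 and 0, transport kinesins 2 and 5, spindle assembly 6 and 2, passenger complex 1 and 2, kinetochore 6 and 3, replication 2 and 2, regulators 2 and 3, tubulins 0 and 4. On slides 1, 2 and 3 alone, counts higher were 0, 0 and 0 for other mitotic kinesins, kinetochore, passenger complex, replication and regulators, 0, 1 and 0 for transport kinesins and 3, 1 and 0 for spindle assembly; lower counts were 0 for transport kinesins on slides 2 and 3 and for passenger complex, regulators and tubulins on all 3. With brightness, spindle assembly and kinetochore had 1 higher, and the other lists that had passing genes had 0 in that direction. Replication had 2 higher with array weights, second probes or the slide block, 3 with the code series block or quantile normalization, 6 with number-coded samples alone and 0 with the luminal covariate. Transport kinesins had 3 higher with second probes or the luminal covariate, regulators 1 with the luminal covariate, and passenger complex 5 with the scan day or code series block. Tubulins had 1 lower with quantile normalization (and 1 higher), the slide block or number-coded samples alone.

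With the replicate block, 9 of the 10 genes were higher (median change 1.64), as were 969 over all genes. Transport kinesins had 2 higher there, passenger complex 0 lower, replication 3 higher and tubulins 1 lower. The labels state no pairing by number, and 1 of 6 glands correlated best with the carcinoma of its number.

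Leaving out 1 array gave counts higher of 2 to 7 for transport kinesins, 5 to 9 for spindle assembly, 1 to 5 for passenger complex, 8 to 15 for kinetochore, 0 to 3 for replication and 1 to 3 for regulators, and lower of 0 to 1 for passenger complex and 1 to 3 for tubulins.

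Changes that turned sign were Kif18a at -0.28 (normexp) and -0.090 (slide 3 alone), and with normexp Kif26b at -0.64, Gtse1 at -0.13 and Asf1b at -0.014; the cause was not tested. Among the 10 genes signal over background limits Tpx2 most, at 3 of 6 gland arrays, and among the others named it limits Gtse1 (0), Kif26b (2), Kif20b and Kntc1 (3 each).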
